A study of Mus musculus with 3 samples.

Results

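Mrpl15 and Lypla1 are neighbouring genes on mouse chromosome 1 whose start sites face away from each other across 22154 bp. The stretch described here is chr1:4765001-4810000 of build mm9, 45 kb that hold the start of Mrpl15 (near 4775820, minus strand) and the start of Lypla1 (near 4797974, plus strand). It is 225 bins of 200 bp out of 12384582 with coverage in any library, and these are 2 genes. The genes were chosen by measured values of these same libraries: peaks of the ERRα ChIP near both starts and a region of the mTOR ChIP near 4778900. The levels in those bins are therefore a description of what was selected. No p-value was computed on them, and their intervals give the counting error of each ratio without allowing for the choice.

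The groups compared held 1 library each and were 3 in number, all from livers of C57Bl/6 males aged 2 to 3 months, and the labels name no treatment. Chromatin was precipitated with an antibody to mTOR (Abcam), an antibody to ERRα (Epitomics) or rabbit IgG (Santa Cruz) as the background. Each ChIP library combined 8 precipitations from the chromatin of 26 livers, so that there is no replicate and every comparison is one of libraries. Stronger occupancy in each cell and occupancy in more cells, or in another cell type of the liver, cannot be told apart. Coverage is given per 10000000 tags, a scale on which 1 tag was worth 0.16 for mTOR, 0.135 for ERRα and 0.145 for IgG. The header totals behind it were 62500000, 74200000 and 68800000 tags.

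ERRα is an orphan nuclear receptor that binds DNA and, with coactivators of the PGC-1 family, drives genes of mitochondrial energy metabolism, many of them highly expressed in liver. mTOR is the kinase of the complexes mTORC1 and mTORC2, which couple nutrients and growth factors to protein synthesis and metabolism; it has no DNA-binding domain of its own. Mrpl15 encodes a protein of the large subunit of the mitochondrial ribosome, which translates the respiratory chain subunits encoded by mitochondrial DNA. Lypla1 encodes acyl-protein thioesterase 1, a cytosolic enzyme that removes palmitate from proteins. In the RefSeq gene order (GRCm38.p6), the pseudogene Gm6123 lies on the far side of Mrpl15, and Tcea1, which encodes a transcription elongation factor, follows Lypla1.

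The strongest signal of the window belonged to ERRα and lay upstream of Lypla1, not on its start. In the bin chr1:4797401-4797600 ERRα coverage was 11.2, mTOR coverage 0.97 and IgG coverage 0.3. ERRα stood at 37.3 times IgG there, with an exact (Clopper-Pearson) 95% interval of 11.4 to 169 on approximate tag numbers, and at 22.8-fold after adding a pseudocount of 0.2 to both values. This interval, like all others here, covers counting error only; about 111 ERRα tags and 2.8 IgG tags lay behind it. The mTOR ratio in the same bin was 3.23 with an interval of 0.705 to 17.2, which includes 1, so a difference from IgG was not detectable at this depth.

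At finer resolution the Lypla1 peak had a single summit. Coverage reached 12.1 between 457 and 434 bp upstream of the start, and stayed at or above 50% of that from 695 to 265 bp upstream, a width of 431 bp. On the side away from the gene it declined to 2.4 at 890 to 823 bp upstream and stayed at 2.4 out to 987 bp. On the gene side it fell more steeply, to 3.4 at 220 to 179 bp upstream, to 1.7 at 178 to 101 bp, and to 0.4 from 100 bp upstream to 299 bp downstream. At the start itself the 3 libraries were therefore level, with 0.4 for ERRα, 0.5 for mTOR and 0.3 for IgG. IgG was not flat under the peak: it was listed at 0.3 from 931 to 327 bp upstream and at 1.2 from 326 to 142 bp upstream, below the gene-side slope of the ERRα peak.

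Across the whole bin that holds the Lypla1 start, chr1:4797801-4798000, coverage was 0.875 for ERRα, 0.748 for mTOR and 0.444 for IgG. The ERRα ratio to IgG was 1.97 (0.582 to 9.27), and the mTOR ratio was 1.68 (0.392 to 7.96). Both intervals include 1 at this start position, which is the only one used here for Lypla1; other starts of the gene were not analysed.

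**Figure D1:**
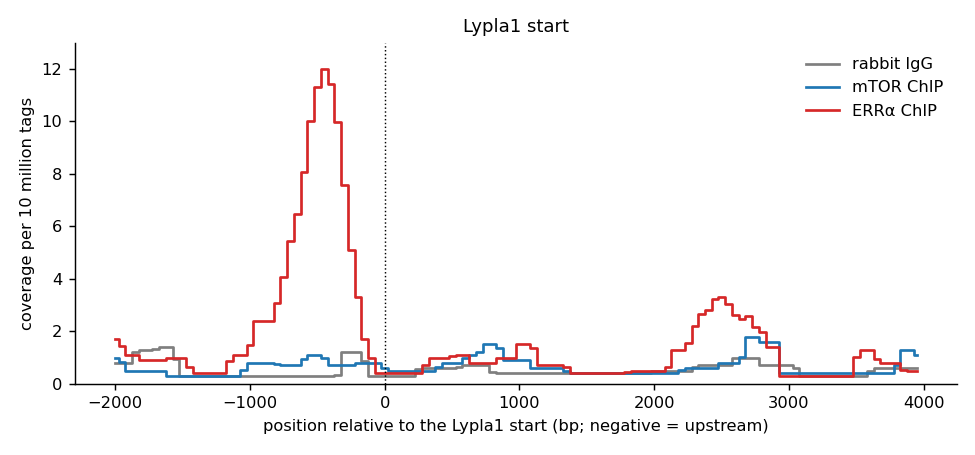
Coverage per 10000000 tags (vertical axis) in 50-bp steps against the position relative to the Lypla1 start (horizontal axis, bp, negative upstream), with 1 line for each of the 3 libraries. The ERRα line peaks upstream of the dotted start, is back at the level of the others on it, and forms a lower mound inside the gene, where the mTOR and IgG lines also lift.

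At Mrpl15 the ERRα signal was lower and lay over the start. In chr1:4775601-4775800, the highest ERRα bin within 1 kb of the start, ERRα coverage was 2.86, mTOR coverage 1.21 and IgG coverage 0.471. ERRα was at 6.08 times IgG (2.27 to 25.5), or 4.56-fold with the pseudocount, and at 2.36 times mTOR (1.11 to 5.44). The mTOR ratio to IgG in this bin was 2.57, with an interval of 0.794 to 12.0, so mTOR could not be told from IgG at this depth. The summit of 3.4 lay 19 to 78 bp downstream of the start, just inside the gene, and the width at 50% of it was 452 bp, from 230 bp upstream to 221 bp downstream. At the base of the start the values were 2.3 for ERRα, 1.7 for mTOR and 0.6 for IgG, so the Mrpl15 start, unlike that of Lypla1, lay under the peak.

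The coverage of the mTOR ChIP was also higher than that of IgG on both sides of the Mrpl15 start. Its highest value near the start was 2, from 188 to 101 bp upstream, where ERRα was 2.2 and IgG 0.6, and it stayed at or above 50% of that over 719 bp, from 313 bp upstream to 405 bp downstream. At 256 to 405 bp downstream it was still 1.3, against 0.4 in IgG. In single bins to either side, however, the interval of the mTOR ratio to IgG included 1. It was 0.684 to 6.65 in chr1:4776001-4776200, upstream, and 0.794 to 12.0 in chr1:4775401-4775600, downstream. In the bin that holds the start, chr1:4775801-4776000, mTOR coverage was 1.80, ERRα coverage 2.20 and IgG coverage 0.6. The mTOR ratio to IgG was 3.00 (1.01 to 8.66) and the ERRα ratio 3.67 (1.34 to 10.2). This mTOR bin was second in level among the 225, but at 2.50-fold with the pseudocount it missed the 3-fold minimum of the call rule given further on.

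Because single bins hold few tags, the same comparison was made over 1 kb centred on each start. Around the Mrpl15 start mTOR averaged 1.22, ERRα 1.56 and IgG 0.512, from about 50.9, 77.5 and 23.5 tags. Over this distance mTOR was at 2.37 times IgG (1.41 to 3.97), ERRα at 3.04 times IgG (1.89 to 4.98), and ERRα at 1.28 times mTOR (0.894 to 1.87), an interval that includes 1. Around the Lypla1 start mTOR averaged 0.674, ERRα 3.27 and IgG 0.547, so that mTOR was at 1.23 times IgG (0.693 to 2.20) and ERRα at 4.86 times mTOR (3.27 to 7.61). Centred on the Lypla1 summit instead, ERRα averaged 5.37 and mTOR 0.790, a ratio of 6.80 (4.74 to 10.1), while mTOR was at 1.69 times IgG (0.971 to 3.15). These values rest on 1 library per ChIP at sites chosen for their ERRα peaks, and whether the genes differ in the ratio of ERRα to mTOR was not tested.

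Within the ERRα library, the Lypla1 bin was 3.91 times the Mrpl15 bin (2.60 to 6.23). Summed over 1 kb around each summit and counted above the flanks 2 to 5 kb away, the ratio was 5.02, with about 230 excess tags at Lypla1 against 45.8 at Mrpl15. The peaks of this library thus differed in their height and in their place relative to the start. Their widths at 50% of the summit, 431 bp at Lypla1 and 452 bp at Mrpl15, were close. These widths were taken without subtracting the flanks, which averaged 0.754 around Lypla1 and 0.643 around Mrpl15 and weigh more under the lower peak. The regions called by the rule given further on were 800 and 400 bp wide, so equal width is not shown.

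**Figure D2:**
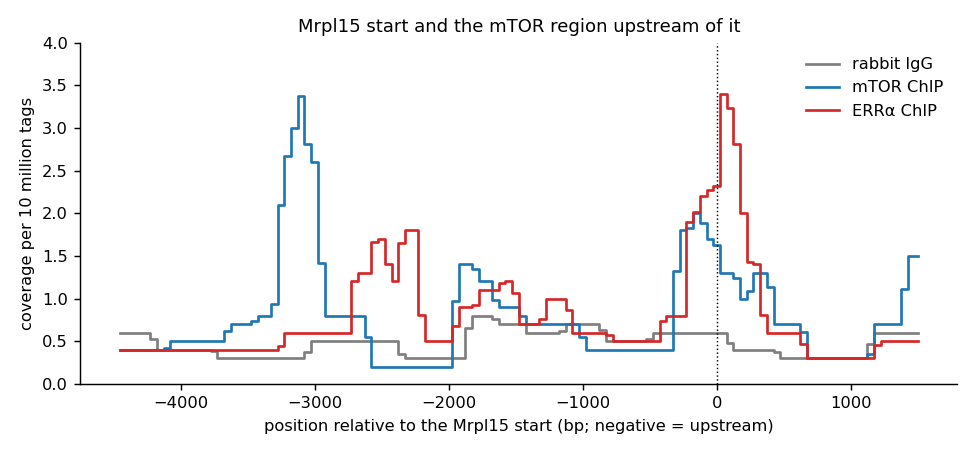
Coverage per 10000000 tags (vertical axis) in 50-bp steps against the position relative to the Mrpl15 start (horizontal axis, bp, negative upstream), with 1 line per library. ERRα and mTOR both rise over the dotted start, with the mTOR maximum on its upstream side, and mTOR alone rises above 3 about 3097 bp upstream, next to a low double rise of ERRα.

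The highest mTOR signal of the window lay between the genes, 3097 bp upstream of the Mrpl15 start. In chr1:4778801-4779000 mTOR coverage was 2.95, ERRα coverage 0.6 and IgG coverage 0.369. mTOR was at 7.98 times IgG (2.80 to 47.5), or 5.53-fold with the pseudocount, and at 4.91 times ERRα (1.98 to 14.7). ERRα was at 1.63 times IgG (0.396 to 11.5), an interval that includes 1. The summit of 3.4 spanned 60 bp, and the width at 50% was 322 bp, narrower than both ERRα peaks. About 24.7 mTOR tags and 3.4 IgG tags lay behind this bin. The adjoining bin farther from Mrpl15, chr1:4779001-4779200, still held 1.63 against 0.3 in IgG.

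ERRα was not flat beside the mTOR region. Its nearest rise was a low double one on the side of Mrpl15, with 1.8 from 2368 to 2219 bp upstream of the Mrpl15 start and 1.7 in the second crest. In chr1:4778001-4778200 ERRα coverage was 1.52, IgG 0.312 and mTOR 0.2, the minimum of the mTOR bins in the window. The mTOR and ERRα rises upstream of Mrpl15 thus lay side by side and did not coincide.

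Another ERRα rise lay inside Lypla1, 2457 to 2532 bp downstream of its start, where coverage reached 3.3 with a width of 555 bp at 50%. In chr1:4800401-4800600 ERRα was 3.05, mTOR 0.745 and IgG 0.774, which put ERRα at 3.94 times IgG (1.71 to 10.7) and mTOR at 0.963 times (0.262 to 3.28). The other libraries were also higher around it: mTOR reached 1.8 at 2666 to 2778 bp and IgG 1 at 2578 to 2777 bp downstream. How far a common rise of all 3 libraries enters this ERRα value was not tested.

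**Figure D3:**
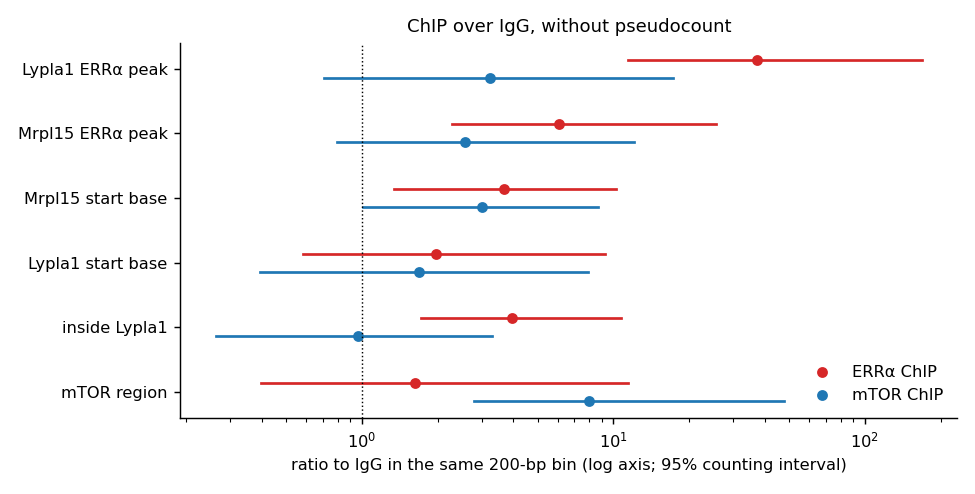
Ratio of each ChIP to IgG in the same 200-bp bin (horizontal log axis, no pseudocount) for 6 bins of the window, with points for the ratio and lines for the exact 95% counting interval. The ERRα intervals lie above 1 in the Lypla1 peak, both Mrpl15 bins and the bin inside Lypla1, and the mTOR intervals lie above 1 in the mTOR region and, at 1.01, in the bin of the Mrpl15 start.

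A bin was called for a ChIP where its value was at least 3-fold that of IgG, with 0.2 added to both, and above 2.01, a level that 1 in 1000 of the IgG bins above 0 exceeded. By this rule 7 of the 225 bins were called for ERRα (3.11%), against 0.327% of all bins of the genome, and 1 was called for mTOR (0.444%), against 0.129%. As the window was chosen for these peaks, nothing is read from that difference. The ERRα bins formed the regions chr1:4775601-4776000 over the Mrpl15 start, chr1:4797001-4797800 upstream of Lypla1 and chr1:4800401-4800600 inside Lypla1. The mTOR bin stood alone and was not among the ERRα bins. With so few called bins nothing is read from this, and the genome share of bins called for both ChIPs is not given here. The second Mrpl15 bin passed at 3.00-fold, and chr1:4800201-4800400 just failed at 2.99-fold. The bins chr1:4769801-4770000 and chr1:4778001-4778200 reached 3.60-fold and 3.35-fold for ERRα but, at 1.60 and 1.52, not the minimum level; for mTOR chr1:4779001-4779200 failed in the same way at 3.65-fold. The counting interval of the ratio to IgG lay above 1 in 11 bins for ERRα (4.89%, genome 0.870%) and in 3 for mTOR (1.33%, genome 0.455%). IgG itself passed the minimum level in 0 of the 225 bins, with a highest bin of 1.48.

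**Figure D4:**
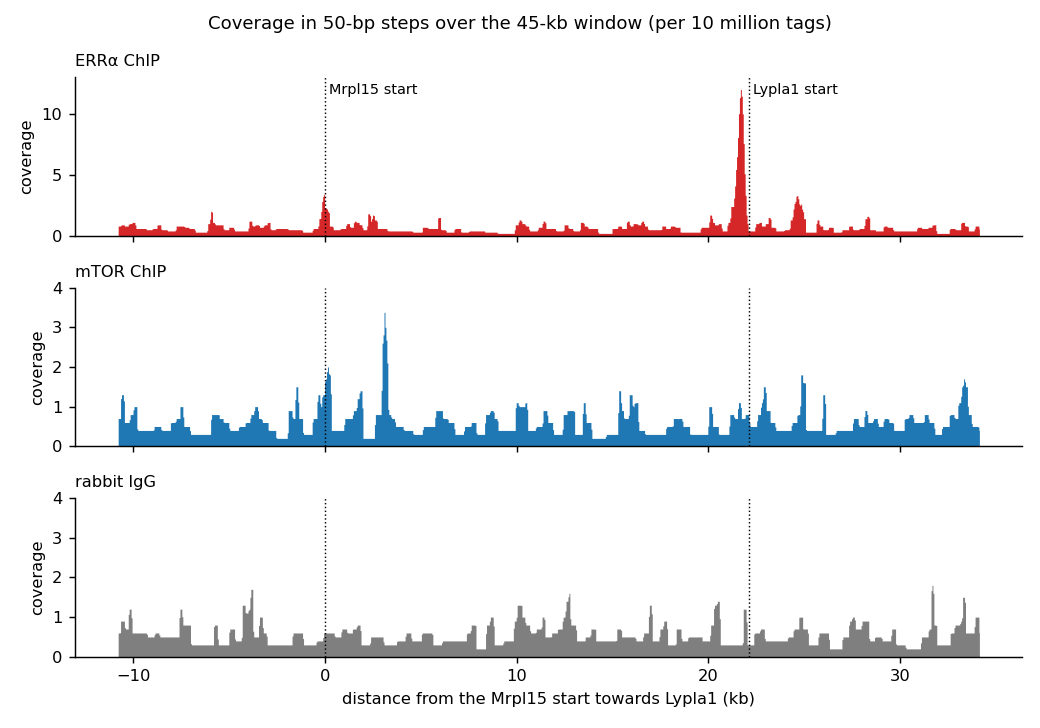
Coverage per 10000000 tags (vertical axes, of different height) in 50-bp steps over 45 kb, plotted against the distance from the Mrpl15 start towards Lypla1 (horizontal axis, kb), with 1 panel per library. The ERRα panel is dominated by the peak before the Lypla1 start, with a summit of 12.1 in the deposited intervals, the mTOR panel by the region upstream of Mrpl15 with 3.4, and the IgG panel has no value above 1.8.

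Set among all called regions, the peak upstream of Lypla1 was in the upper tail and the other regions were not. Of 21765 ERRα regions 204, or 0.937%, had a fold as high as the 22.8 at Lypla1, and 3.87% had a bin of equal or higher coverage. The Lypla1 fold was 17.1 with IgG averaged over 1 kb and 14.1 with the grid moved by 100 bp. Over 9 alternative settings it ran from 4.65 to 37.3, and the rank was taken at the main setting only. The Mrpl15 region, at 4.56-fold, was close to the median of 4.38 over all ERRα regions, with 45.5% at or above it, and the region inside Lypla1, at 3.34-fold, was lower, with 83.6% at or above it. By coverage these 2 regions changed order: 66.5% of ERRα regions were at or above the 2.86 at Mrpl15 and 60.6% at or above the 3.05 inside Lypla1, against a median of 3.41. The mTOR region upstream of Mrpl15, at 5.53-fold, lay between the median of 4.55 and the upper quartile of 6.52 of the 9069 mTOR regions. By coverage it was lower in the order, with 54.5% of mTOR regions at or above its 2.95.

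The value of the other ChIP in the same bin can be set beside the same lists. mTOR was at 2.10-fold over IgG in the Mrpl15 bin and at 2.34-fold in the Lypla1 bin, where the median over ERRα regions was 1.33, with quartiles of 1.03 and 1.72; 12.0% and 8.10% of ERRα regions had an mTOR fold this high. In the region inside Lypla1 mTOR was at 0.971-fold, which 80.8% of ERRα regions reached. These folds share the IgG value that also entered the ERRα fold, and at Lypla1 this value was 0.3, listed for a single stretch of 605 bp. Over 9 alternative settings the mTOR fold ran from 1.17 to 3.23 at Lypla1 and from 1.71 to 2.57 at Mrpl15. With IgG averaged over 1 kb it was 1.76 at Lypla1, and with the grid moved by 100 bp 1.31. The place of Lypla1 among the ERRα regions, taken at the main setting only, is therefore not firm. ERRα was at 1.41-fold in the mTOR region, against a median of 1.24 over mTOR regions.

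The gaps between the mTOR and ERRα regions of the window can be set beside those of the genome. The mTOR region and the Mrpl15 ERRα region were 2800 bp apart, a gap this small or smaller being found for 21.6% of mTOR regions (median gap 14600 bp) and for 9.81% of ERRα regions (median 42400 bp). The gap from the Lypla1 ERRα region to the mTOR region was 18000 bp, which 31.0% of ERRα regions matched or undercut. From the ERRα region inside Lypla1 it was 21400 bp, matched or undercut by 34.3%. As the window was chosen for holding ERRα peaks and an mTOR region, nothing is read from these gaps.

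**Figure D5:**
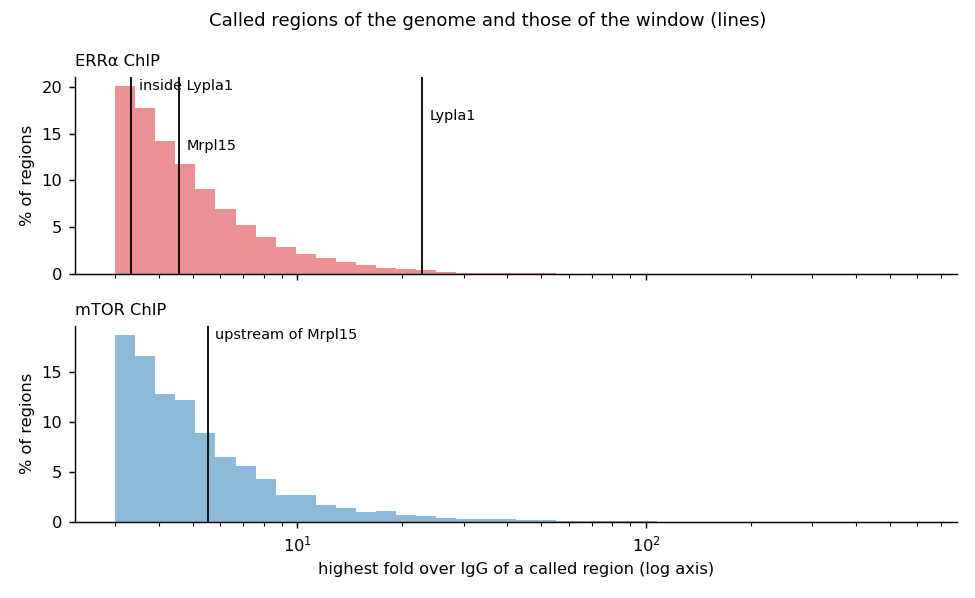
Share of called regions (vertical axis, %) by their highest fold over IgG (horizontal log axis), for 21765 ERRα regions and 9069 mTOR regions, with lines at the regions of the window. The Lypla1 line stands in the sparse tail at 22.8, whereas the Mrpl15 line at 4.56 and the mTOR line at 5.53 fall within the bulk.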

How the data were processed

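The authors deposited coverage signal tracks on mm9, on a scale of 10000000 tags (per the file headers); the submitters' processing notes list BWA 0.5.9 and MACS 1.4.1 without a role. How the tracks were written, tags extended and duplicates treated is not stated in what was used here. Summed coverage came to 149 to 150 bp per tag. Values are rounded to 0.1 and held constant over intervals with a median width in the window of 207 bp (ERRα), 247.5 bp (mTOR) and 296 bp (IgG), which limits the resolution, most of all where coverage is low.

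From these tracks, coverage was averaged over bins of 200 bp on chromosomes 1 to 19, X and Y and over steps of 50 bp. Approximate tags were computed from coverage, the header totals and the bp per tag, and rounded to whole tags for exact intervals. The pseudocount is the 5th percentile of the IgG bins above 0; called neighbouring bins were merged. With 1 library per group no p-value was computed. The call and the intervals were tested on simulated data.

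The window and start positions came with the choice of these genes, which, like the gene lists, was made with earlier results of these data known; the start positions were not checked against an mm9 annotation. By rule, both genes were named, with every called bin of the window. The planned gene lists and promoter motifs were not analysed here, since neither an mm9 annotation nor an mm9 sequence was used. Alternatives changed the pseudocount, bin size, scaling, control, minimum fold and minimum level; IgG averaged over 1 kb, a grid moved by 100 bp, 1 kb centred on each site and stretches without 600 bp around called bins were added after seeing the data. Python 3.11.15, NumPy 2.4.6, pandas 2.3.3, SciPy 1.17.1 and Matplotlib 3.10.9 were used.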

Additional observations from a re-analysis of the deposited data

How the results depend on the processing

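Of 98 alternative values 88 stayed within the counting interval of the value reported or, for counts of bins, within 1.5 times it. For the ratios to IgG this says little, because their intervals are wide. At Lypla1 they ran from 11.4 to 169 for ERRα and from 0.705 to 17.2 for mTOR. They belong to ratios without the pseudocount, whereas most of the alternatives to these ratios include it. The IgG means could not move when the libraries were rescaled to IgG, yet they count among the 88. None of the values whose interval left out 1 changed direction. ERRα in the mTOR region, whose interval included 1, went from 1.41-fold to 0.913-fold with the flanks in place of IgG. Averaging over 1 kb centred on the site in place of the highest bin, an alternative added after seeing the data, gave 4.65-fold for ERRα at Lypla1, whose peak is off the start, and 2.69-fold for the mTOR region. The ERRα count of 7 bins became 4 at a minimum of 5-fold, all upstream of Lypla1, so that the Mrpl15 region and the region inside Lypla1 were no longer called; the latter was also lost with the pseudocount doubled. With 100-bp bins, which are shorter by construction, 13 ERRα bins and 3 mTOR bins were called, and with a minimum level at the 99th IgG percentile 2 mTOR bins were called. The Lypla1 region and the mTOR region were called in 7 of 7 alternatives. Without the called bins the ERRα mean between the starts was 0.614 in place of 0.841. Without 600 bp around them as well (added), it was 0.594, the mTOR mean there 0.544 in place of 0.602, and the ERRα mean on the Lypla1 side 0.602 in place of 0.701. With the flanks in place of IgG, ERRα was 11.9-fold at Lypla1 and 3.61-fold at Mrpl15, and the mTOR region 3.59-fold. IgG rested on 2.8 to 7.1 tags in the bins described at the peaks, and this depth sets the width of most intervals. No paired analysis was possible because each group held 1 library.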

Other observations

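With the called bins and 600 bp on both sides of each left out, a setting added after seeing the data, 38600 bp of the window remained. ERRα averaged 0.611 there, mTOR 0.569 and IgG 0.557, so that ERRα was at 1.10 times IgG (1.01 to 1.20) and mTOR at 1.02 times (0.936 to 1.12). The means over all covered bins of the genome were 0.602, 0.601 and 0.604, which places IgG and mTOR in this remainder below their own genome means. The genome means keep the called bins that the remainder leaves out, so the sets are unlike. The median bin of the whole window was 0.6 for ERRα, 0.522 for mTOR and 0.5 for IgG, against genome medians of 0.5, 0.5 and 0.529. On the Lypla1 side ERRα was at 1.13 times IgG (0.961 to 1.35) and mTOR at 1.18 times (0.989 to 1.41). On the Mrpl15 side the ERRα ratio was 1.16 (0.982 to 1.37) and the mTOR ratio 0.993 (0.830 to 1.19), and between the starts they were 1.05 (0.926 to 1.19) and 0.959 (0.841 to 1.10). All 6 of these intervals include 1. The remainder still holds uncalled ERRα rises, such as chr1:4769801-4770000 at 1.60.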
